A study of Mus musculus with 16 samples.

Results

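Minocycline added to olanzapine was compared with olanzapine alone in the hypothalamus, the brain region that reads hormonal signals of energy state and sets feeding. All samples labelled OLZ+MINO (mice 37, 40, 47 and 48) and OLZ (mice 13, 14, 17 and 19) were taken, 8 of the 16 samples of the series. Every mouse was a female C57BL/6 animal (C57BL6/J in the labels), and from 10 weeks of age received, for 12 weeks, a diet that drew 45% of its calories from fat. OLZ mice ate that diet with the antipsychotic olanzapine at 54 mg per kg. OLZ+MINO mice ate the same drug diet and had the tetracycline antibiotic minocycline in their drinking water at 0.6 mg/mL. The 4 CTRL mice had the fatty diet without a drug, so that neither a lean group nor a group on a lower fat diet enters here. The remaining 4 mice had the antibiotic and no olanzapine (MINO). The comparison asks which hypothalamic transcripts differ when minocycline is added to olanzapine. All p-values below measure the spread between single mice, 1 library each.

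Olanzapine blocks dopamine, serotonin, histamine and muscarinic receptors, and weight gain is its best known side effect. Minocycline stops bacterial protein synthesis at the small ribosomal subunit, reaches the brain, can also act on the related ribosome of mitochondria, and is widely used to quiet microglia. In the arcuate nucleus, at the floor of the hypothalamus, neurons with Npy and Agrp drive feeding and neurons with Pomc restrain it. Tanycytes, the glial lining of the ventricle next to that nucleus, carry nutrients, thyroid hormone and leptin between cerebrospinal fluid and the hypothalamus.

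The values are scaled read counts per gene, called scaled counts, which do not give the read depth. They summed to 8435016 to 8640807 per OLZ library and to 8855060 to 9279227 per OLZ+MINO library. Differences are given as log2 fold changes of log2(scaled count + 1), OLZ+MINO minus OLZ, with their standard error (SE), which understate the change of low genes. A gene is said to rise or fall at an adjusted p under 0.3 in limma, after adjustment over all 15983 genes. The study also set its limit at 0.3, but on a false discovery rate that its methods describe as local, which is a different measure. Calls at an adjusted p under 0.05 are named as such. Markers of the tissue were present, with Pomc, Avp and Pmch at 682 or more in every OLZ library, but they were uneven in the co-treated mice. OLZ+MINO mouse 48 had the lowest quality weight of limma among the 12 libraries (0.537) and the highest summed level of 15 thalamic genes, 17989 against 4452 to 5867 in the other co-treated mice and 3524 to 4431 in OLZ. OLZ mouse 13 had the highest summed level of 19 tanycyte genes, 7172 against 4673 to 5188 in the other OLZ mice. Results are therefore also given without these mice.

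Adding minocycline changed 1974 of 15983 genes (12.4%), of which 958 rose (5.99%) and 1016 fell (6.36%). In 1231 genes (7.7%) all 4 values of a group lay above the 4 of the other. At an adjusted p under 0.05, 54 genes were called (0.338%), 17 higher and 37 lower in OLZ+MINO. The median log2 fold change was 0.00475 over all genes, 0.42 over the genes that rose and -0.45 over those that fell. Changes of more than 1 on the log2 scale were fewer among the genes that rose, 90, than among those that fell, 175. The lists that follow show where they lay. List counts are to be read beside the 5.99% of all genes that rose and the 6.36% that fell. Among the genes that fell were those of the arcuate nucleus, of tanycytes, of microglia and of the cytosolic ribosome, and among those that rose were myelin genes, ion channels and transcripts of mitochondrial DNA.

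The number of calls rested on a few libraries. It was 1974 with all 12 libraries. Dropping a single OLZ mouse left 187 calls for mouse 13 and 853 for mouse 14, and dropping a single co-treated mouse left 663 for mouse 40 and 556 for mouse 48. When mouse 37 or mouse 47 was dropped, calls rose to 2834 and 2635. With both mouse 13 and mouse 48 left out, 11 genes were called (1169 had an unadjusted p under 0.05). They were Scn7a, Sft2d2, Tbx3, Mtpn, Erap1, Col23a1, Serpina3n and 4732456N10Rik, lower in OLZ+MINO, and Ebf1, Slc15a2 and Gm9843, higher.

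**Figure D1:**
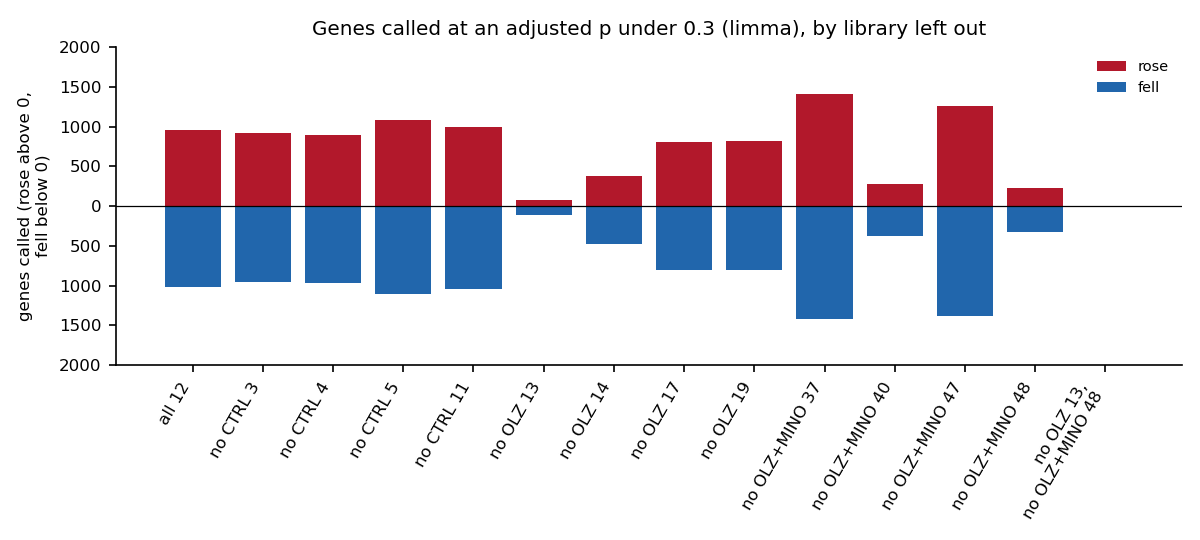
Genes called at an adjusted p under 0.3 in limma with all 12 libraries and with each library left out in turn, and with OLZ mouse 13 and OLZ+MINO mouse 48 both left out. Bars above 0 count genes that rose and bars below 0 genes that fell in OLZ+MINO against OLZ, and the total runs from 11 to 2834.

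The smallest p among the genes that fell belonged to Scn7a (ENSMUSG00000034810, chromosome 2 from 66673425 to 66784914 of GRCm38), a sodium-sensing channel of glia that is among the tanycyte genes listed here. Its scaled counts were 1077, 670, 699 and 686 in OLZ, and 173, 227, 260 and 139 in OLZ+MINO. The lowest OLZ mouse was thus far above the highest co-treated mouse. The log2 fold change was -1.98 (SE 0.20, limma adjusted p = 0.00081). CTRL mice held 209 to 300, a range that overlaps that of the co-treated mice.

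Sft2d2, a protein of vesicle traffic to the Golgi, followed with 581, 419, 416 and 478 in OLZ and 222, 213, 246 and 169 in OLZ+MINO. This is a log2 fold change of -1.15 (SE 0.13, limma adjusted p = 0.0020). Erap1, the aminopeptidase that trims peptides for MHC class I, was nearly level among the OLZ mice. It was at 180, 177, 180 and 175 there and at 71, 98, 107 and 99 in OLZ+MINO, with a log2 fold change of -0.93 (SE 0.14, limma adjusted p = 0.026). Mtpn, myotrophin, changed little in size but in every mouse, from 1634 to 1775 in OLZ to 1235 to 1342 in OLZ+MINO (log2 fold change -0.39, SE 0.06, limma adjusted p = 0.027). Serpina3n, a secreted protease inhibitor that reactive glia make, was at 660, 517, 576 and 638 in OLZ and 317, 188, 214 and 116 in OLZ+MINO, a log2 fold change of -1.60 with an adjusted p of 0.035 from limma. Msn, which ties actin to the membrane, had a log2 fold change of -0.86 at the same adjusted p.

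Among the genes that rose, Ebf1 (ENSMUSG00000057098, chromosome 11 from 44617317 to 45008091), a transcription factor of B cell and neuron differentiation, had the smallest p. The OLZ mice held 40, 40, 47 and 47 and the OLZ+MINO mice 111, 155, 97 and 196, so that even the lowest co-treated mouse was above every OLZ mouse. The log2 fold change was 1.61 (SE 0.21, limma adjusted p = 0.0073), and CTRL mice were at 88 to 123, also above every OLZ mouse. Its relatives Ebf2 and Ebf3 also rose, by 1.29 and 1.02 on the log2 scale.

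Epha10, an ephrin receptor, was at 176, 234, 225 and 231 in OLZ and 291, 423, 397 and 460 in OLZ+MINO, with a log2 fold change of 0.85 (SE 0.14, limma adjusted p = 0.035). Kcna6, a potassium channel of axons, rose by 0.46 on the log2 scale, Cntnap1, which joins axon and myelin at the node, by 0.50, and Snph, which anchors mitochondria in axons, by 0.41. Sema3f, an axon guidance cue, rose by 1.07, Ankrd29 by 1.02 and Cygb, the globin of fibroblasts and some neurons, by 0.43. All of these had an adjusted p under 0.05 and no overlap of the groups. The predicted gene Gm9843 was listed at 0, 0, 0 and 26 in OLZ and 39, 211, 109 and 43 in OLZ+MINO, and at 119 to 167 in CTRL.

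**Figure D2:**
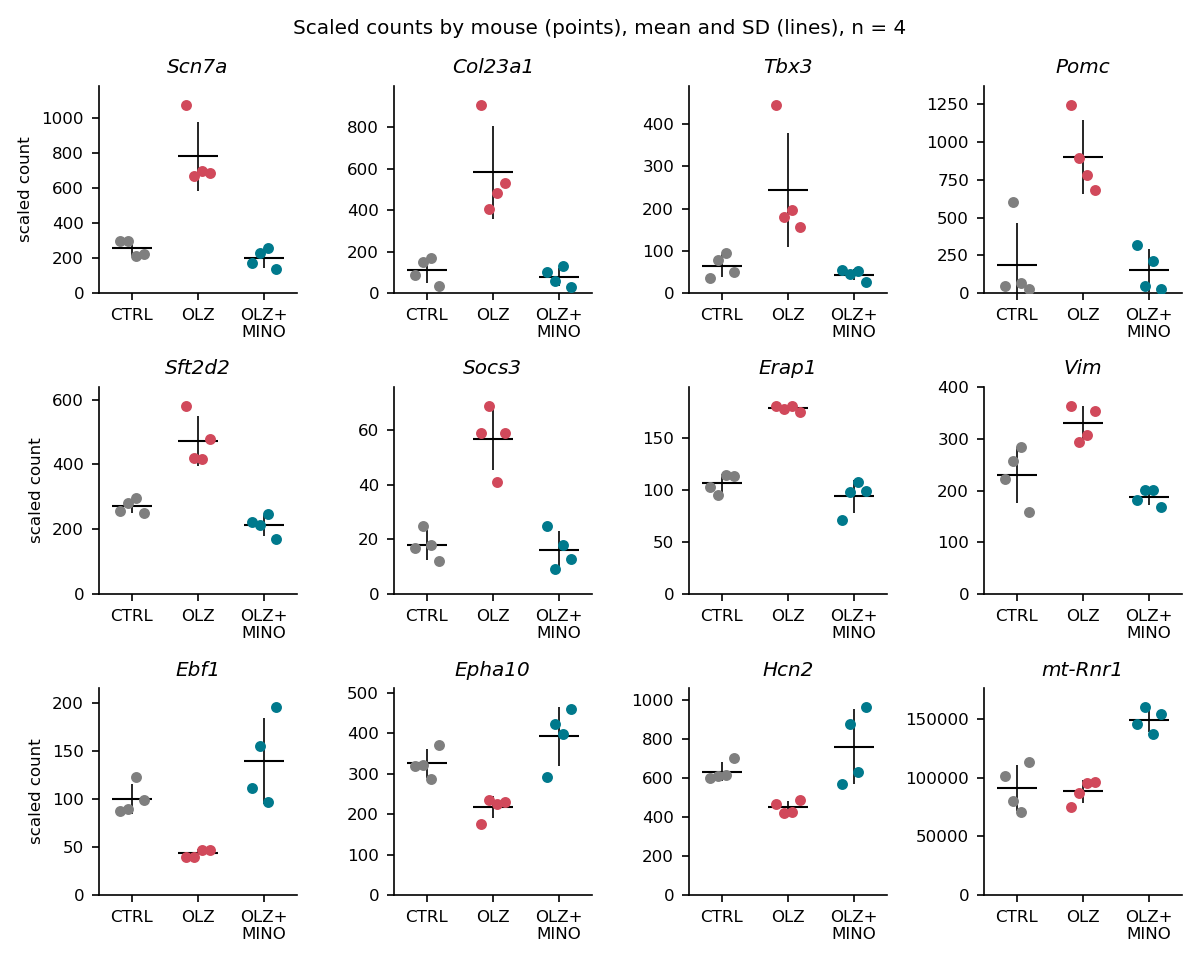
Scaled counts of 12 genes in each CTRL, OLZ and OLZ+MINO mouse (points), with the group mean and its SD (lines, n = 4), on linear axes from 0. The 12 genes were picked by hand from the called genes named in the text, so their clear separation follows from the choice. For each of them the OLZ and the OLZ+MINO mice do not overlap, as for Erap1 with 175 to 180 in OLZ and 71 to 107 in OLZ+MINO. Over all genes 7.7% had no overlap.

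Neuropeptide genes and neuron markers of the arcuate nucleus were lower in the co-treated mice. Of 16 measured, 11 fell and 0 rose, the median log2 fold change being -1.53 (0.00475 over all genes), and 9 of them had no overlap of the groups. Pomc had the largest fall among called genes that had an annotated symbol rather than that of a predicted gene, a mean of at least 50 and groups that did not overlap (ENSMUSG00000020660, chromosome 12 from 3954951 to 3960642). It encodes the precursor of alpha-MSH, which curbs appetite. OLZ mice held 1247, 895, 782 and 682 and OLZ+MINO mice 319, 45, 210 and 24, a log2 fold change of -3.23 (SE 0.85, limma adjusted p = 0.11). The co-treated mice thus split, with mice 40 and 48 far below mice 37 and 47. CTRL mice were as uneven, at 48, 605, 69 and 25.

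Npy and Agrp, which stimulate feeding, were lower in every co-treated mouse. Npy was at 205, 108, 94 and 114 in OLZ and 22, 47, 24 and 21 in OLZ+MINO. For Agrp the values were 40, 39, 33 and 19 against 11, 4, 4 and 4, so that the co-treated mice rest on low values. Of 6 peptides that stimulate feeding 3 fell and 0 rose, and of 10 that restrain it 3 fell, 0 rose and 3 were higher. Cartpt, a peptide of satiety neurons, had a log2 fold change of -1.42. Ghrh, the releasing hormone of growth hormone, had a log2 fold change of -2.24, Sst, its antagonist, -1.19, and Pdyn, the dynorphin precursor, -1.54. Tbx3, a transcription factor that keeps the identity of these neurons, was at 446, 180, 197 and 157 in OLZ and 55, 44, 51 and 25 in OLZ+MINO (log2 fold change -2.38, SE 0.36, limma adjusted p = 0.026). Corin, a protease, had -2.23, and Isl1, a transcription factor of the same lineage, -1.53.

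With a single library left out, the number of arcuate genes that fell was 5 (OLZ mouse 13) to 13 (OLZ+MINO mouse 37), and without both mouse 13 and mouse 48 it was 1, at a median log2 fold change of -1.08. The summed level of the 16 genes was 4565 to 6196 in OLZ and 2239 to 3401 in OLZ+MINO. In bulk tissue, fewer cells of a type and less RNA per cell cannot be told apart. This holds for each cell type list here, and the share of each nucleus in a dissected piece was not tested.

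Markers of other hypothalamic nuclei were called less often than those of the arcuate nucleus, beside 12.4% of all genes. In preoptic and tuberal GABA regions all 12 genes measured were lower and 4 fell (median -0.73). Without OLZ mouse 13 it was 1, and without OLZ+MINO mouse 48 it was 2. The lateral hypothalamus had 1 rise and 2 falls among 9 genes (median -0.44). Some genes stand in more than 1 list, so that the lists are not independent. Pdyn and Cartpt are in the arcuate and the lateral list. Avp is in the suprachiasmatic list and in that of the paraventricular and supraoptic nuclei. Rgs16 and Rora are in the suprachiasmatic and the thalamic list. Of 10 suprachiasmatic genes 2 fell and 7 were higher (median 0.044), of 11 ventromedial genes 1 rose and 1 fell (median -0.13), of 8 paraventricular and supraoptic genes 1 fell (median -1.07), and of 10 mammillary genes 1 fell and 9 were higher (median 0.40). Six6, needed for the anterior hypothalamus, was at 109, 163, 87 and 82 in OLZ and 63, 5, 39 and 3 in OLZ+MINO, a log2 fold change of -2.77 (limma adjusted p = 0.13). Six3 had -1.64, Fezf1, of the ventromedial nucleus, -2.0, and the oestrogen receptor Esr1 -1.47. Avp, vasopressin of the paraventricular, supraoptic and suprachiasmatic nuclei, was at 2186, 2592, 1470 and 1636 in OLZ and 1741, 193, 1075 and 91 in OLZ+MINO. This is a log2 fold change of -2.17, called with overlap of the groups. Again mice 40 and 48 held the low values. Hcrt (orexin) and Pmch (melanin-concentrating hormone), of lateral hypothalamic neurons that promote waking and feeding, did not pass the test, with log2 fold changes of 0.16 and -0.28. Pmch was at 4230, 2154, 4168 and 415 in OLZ+MINO, where mouse 48 was lowest.

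Among the receptors that carry hormone and peptide signals to these neurons, several were lower. Of 17 genes of leptin, insulin, ghrelin and related signalling, 7 fell and 1 rose, with a list median of -0.14. Socs3, the brake on leptin signalling that leptin itself induces, fell most, from 59, 69, 41 and 59 in OLZ to 25, 9, 18 and 13 in OLZ+MINO (log2 fold change -1.81, SE 0.34, limma adjusted p = 0.043). The ghrelin receptor Ghsr had a log2 fold change of -1.66, the calcitonin receptor Calcr -1.22, the GLP-1 receptor Glp1r -1.15, the leptin receptor Lepr -0.75 and the transcription factor Stat3 -0.61. Irs1, the adaptor of the insulin receptor, rose by 0.24. Of 16 receptors of melanocortins, neuropeptide Y and other peptides, 4 fell, namely Npy2r (-1.24), Mc3r (-1.0), Hcrtr2 (-0.65) and Npy1r (-0.57), and the neurotensin receptor Ntsr1 rose by 0.68. Irs4, an adaptor that the hypothalamus expresses strongly, was at 1635 to 2209 in OLZ and 187 to 1141 in OLZ+MINO (log2 fold change -1.67).

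Without OLZ mouse 13, 2 of the 17 signalling genes fell and 0 of the 16 receptors. Without OLZ+MINO mouse 48 the counts were 5 and 1, and without both mice 0 and 0 (6 and 4 were lower at an unadjusted p under 0.05).

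Tanycyte genes were lower in the co-treated mice. Of 19 measured, 11 fell and 0 rose, the median log2 fold change being -1.03, and 7 of the 11 had an adjusted p under 0.05 in limma. Col23a1, a membrane collagen (ENSMUSG00000063564, chromosome 11 from 51289920 to 51583918), was at 907, 406, 480 and 532 in OLZ and 99, 56, 129 and 29 in OLZ+MINO, a log2 fold change of -3.01 (SE 0.48, limma adjusted p = 0.029). Rax, the transcription factor that defines tanycytes, was at 87, 31, 32 and 34 in OLZ and 8, 0, 7 and 0 in OLZ+MINO. Fndc3c1 showed 165, 86, 64 and 54 against 9, 0, 4 and 5. Neither gene overlapped between the groups, and both were at or near 0 in co-treated mice. Crabp1, which binds retinoic acid, had a log2 fold change of -2.58, and Gpr50, an orphan relative of melatonin receptors, -2.21.

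Dio2, which activates thyroid hormone, had a log2 fold change of -1.03, with mouse 40, at 129, inside the OLZ range and mouse 48, at 122, just under it. Tshr, the thyrotropin receptor through which the pars tuberalis speaks to tanycytes, was at 96, 43, 40 and 39 in OLZ and 8, 2, 11 and 4 in OLZ+MINO, and Crym, which holds thyroid hormone in the cytosol, had a log2 fold change of -2.09. Of 13 genes of thyroid hormone handling 5 fell, the receptor Thrb (-0.73) among them, and 0 rose. The intermediate filament gene Vim had -0.81 (limma adjusted p = 0.044) and Nes -1.43.

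The 11 falls among tanycyte genes were 8 when OLZ mouse 13 was left out, 11 when OLZ+MINO mouse 48 was, and 2, Scn7a and Col23a1, when both were. Without both mice 18 of the 19 were lower, 11 at an unadjusted p under 0.05, and the median was -0.94. Of 10 choroid plexus genes 4 fell and 1 rose (median -0.17). Without OLZ mouse 13, 0 of these fell, and without OLZ+MINO mouse 48, 1 did. Fewer genes of ependymal cilia and of the meninges passed the test. Of 19 genes of ependymal cilia 2 fell, and the list median was -0.14. Of 20 meningeal and matrix genes 2 fell (median -0.83), and their summed level was 570 to 2863 in OLZ, highest in mice 13 and 19, and 520 to 924 in OLZ+MINO. Their part in the tanycyte result was not tested.

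**Figure D3:**
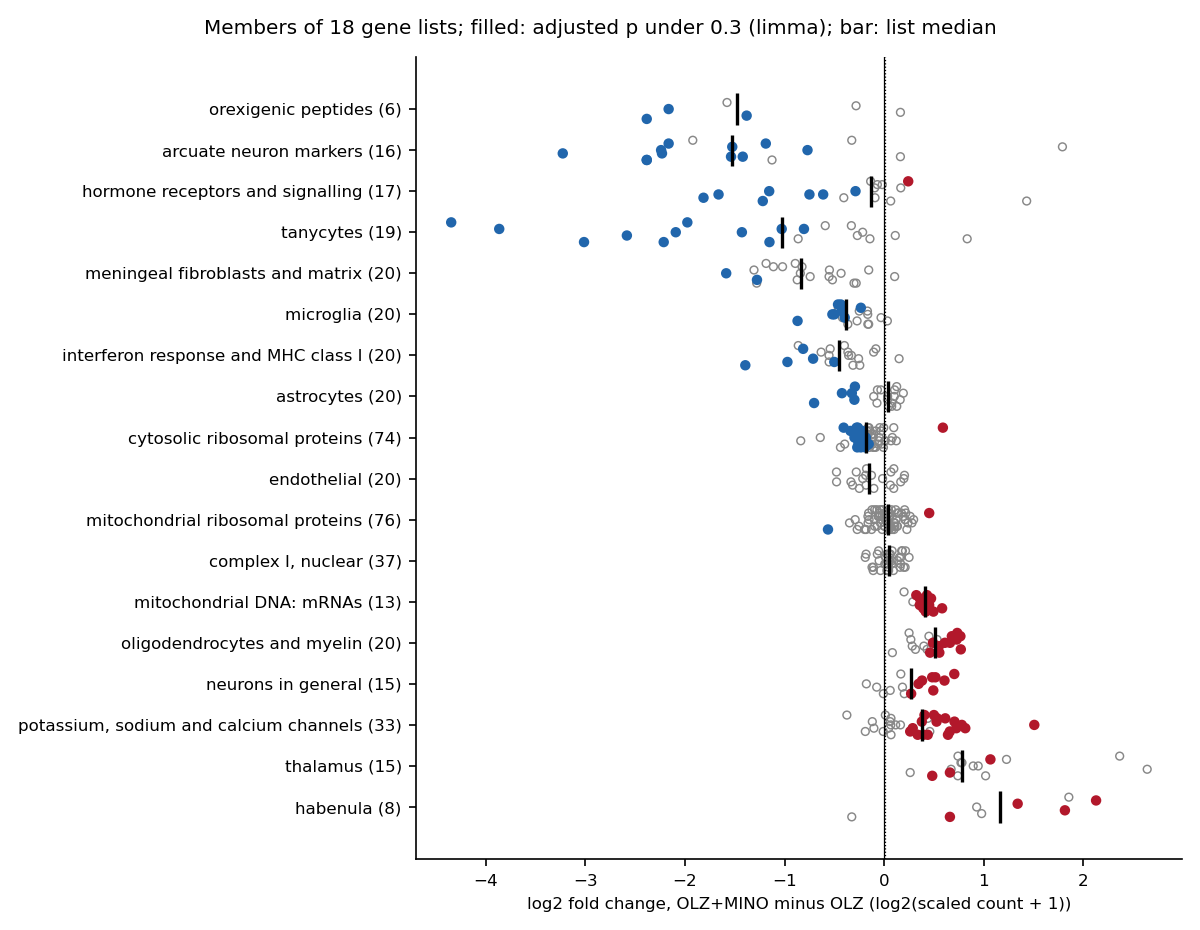
Log2 fold change, OLZ+MINO minus OLZ, of each measured member of 18 gene lists (points, number measured in brackets). Filled points passed an adjusted p under 0.3 in limma, and the black bar is the list median, which runs from -1.53 for arcuate neuron markers to 1.16 for the habenula.

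Microglia and antigen presentation were lower in the co-treated mice. Of 20 microglial genes 9 fell (6.36% over all genes) and 0 rose, the median log2 fold change being -0.38, and 19 of the 20 were lower. Fcrls, a microglial surface protein, was at 141, 120, 89 and 86 in OLZ and 44, 59, 57 and 76 in OLZ+MINO (log2 fold change -0.87, SE 0.21, limma adjusted p = 0.092). Tmem119, which separates microglia from blood macrophages, was at 84 to 127 and 66 to 75. The complement genes C1qc (-0.50) and C1qb (-0.40), the protease Ctss (-0.44), the integrin Itgam (-0.43) and the survival receptor Csf1r (-0.23) fell, whereas the defining markers Cx3cr1 (-0.16) and P2ry12 (-0.16) did not pass the test. Tlr2, a sensor of bacterial lipoproteins, was at 40, 54, 33 and 40 in OLZ and 21, 18, 18 and 19 in OLZ+MINO (log2 fold change -1.08, SE 0.27, limma adjusted p = 0.097).

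Of 20 genes of the interferon response and MHC class I, 5 fell (6.36% over all genes) and 0 rose (median -0.45). Psmb8, a subunit of the immunoproteasome, had -1.39 on the log2 scale, the transcription factor Irf1 -0.97, the peptide transporter Tap1 -0.81, and the heavy chains H2-K1 and H2-D1 -0.71 and -0.50. H2-K1 was at 239, 165, 250 and 234 in OLZ and 125, 139, 155 and 117 in OLZ+MINO. H2-K1 and H2-D1 are closely related, so that counting may share reads between them. Of 19 genes of NF-kB and inflammation 2 were called, Tlr2 and Ikbkg, both lower, which is near the 12.4% called over all genes. Without OLZ mouse 13, 0 of the 20 microglial and 1 of the 20 interferon and MHC genes fell. Without OLZ+MINO mouse 48 the counts were 5 and 1, and without both mice 0 and 0 (7 and 2 were lower at an unadjusted p under 0.05), at medians of -0.27 and -0.26.

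Of 13 measured genes of reported minocycline targets, only Hmgb1, a nuclear protein that acts as an alarm signal outside cells, changed. It was at 1156, 1213, 1268 and 1176 in OLZ and 1000, 943, 927 and 958 in OLZ+MINO (log2 fold change -0.33, SE 0.07, limma adjusted p = 0.052). Astrocyte genes were mixed, and 5 of 20 fell at a list median of 0.034. Gfap, the filament of reactive astrocytes, had a log2 fold change of -0.70, Apoe, which carries lipid between brain cells, -0.32, and Aqp4, the water channel, 0.10, which did not pass the test. Abca1, which loads cholesterol onto ApoE, was at 1114 to 1241 in OLZ and 834 to 989 in OLZ+MINO (log2 fold change -0.39, limma adjusted p = 0.043). Notch2, a receptor of glial and stem cell fate, was at 602 to 771 and 383 to 543 (log2 fold change -0.59, limma adjusted p = 0.046). In limma 0 of 20 endothelial genes were called, and 0 had an unadjusted p under 0.05.

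Most cytosolic ribosomal protein genes were slightly lower. Of 74 measured, 67 were lower, 26 fell, 1 rose and 47 were not called (log2 fold changes of -0.84 to 0.59, median -0.18). Rpl14 was at 1623, 1438, 1574 and 1450 in OLZ and 1284, 1106, 1097 and 1106 in OLZ+MINO (log2 fold change -0.41, SE 0.07, limma adjusted p = 0.035). Rpl3 had -0.26 and Rps26 -0.34. Rpl28 was the exception and rose by 0.59. With a library left out, 2 (OLZ mouse 13) to 30 (OLZ mouse 19) fell, and without both mouse 13 and mouse 48, 0 (8 were lower at an unadjusted p under 0.05). Many of these genes have processed pseudogenes that can share their reads.

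Transcripts of the mitochondrial genome rose. The ribosomal RNAs mt-Rnr1 and mt-Rnr2, the core of the ribosome inside mitochondria, together took 7.65 ± 0.416% (SD, n = 4) of scaled counts in OLZ mice, against 10.8 ± 0.35% (SD, n = 4) in co-treated mice. The ranges, 7.08 to 8.06% and 10.41 to 11.2%, did not overlap (two-sided exact permutation test, p = 0.0286, the smallest that 4 against 4 allows). mt-Rnr1 was at 75190, 86734, 95107 and 96010 in OLZ and 145371, 160274, 136757 and 154016 in OLZ+MINO, a log2 fold change of 0.76 (SE 0.14, limma adjusted p = 0.043). mt-Rnr2, the gene with the most counts, rose by 0.55 (quantile normalization, which gives such a gene the same value in every library, set its difference to 0). The co-treated mice lay close together in the share of the ribosomal RNAs, and mouse 48 had the lowest share among them. The cause of this rise was not tested.

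Of the 13 mRNAs of mitochondrial DNA 11 rose and 0 fell, the median log2 fold change being 0.41. They encode core subunits of the respiratory chain and of ATP synthase. The largest was that of mt-Nd3, a complex I subunit, at 3520, 4063, 3938 and 3708 in OLZ and 4988, 6066, 5250 and 6595 in OLZ+MINO (log2 fold change 0.58, SE 0.11, limma adjusted p = 0.046). mt-Co3, of complex IV, had 0.47, mt-Cytb, of complex III, 0.43, and mt-Atp6, of ATP synthase, 0.42. mt-Nd1 (0.20) and mt-Co2 (0.29) did not pass the test. The mRNAs took 2.25 ± 0.123% (SD, n = 4) of scaled counts in OLZ mice, against 2.8 ± 0.374% (SD, n = 4) in co-treated mice. These groups also did not overlap (two-sided exact permutation test, p = 0.0286). The co-treated mice split, with mice 40 and 48 at 3.013 and 3.218% and mice 37 and 47 at 2.424 and 2.557%. The highest OLZ mouse was at 2.332%. CTRL mice were at 1.808 to 2.503%, a range that overlaps that of the co-treated mice. mt-Nd6 lies on the strand opposite mt-Nd5, and the sources used here do not say whether reads were counted by strand.

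Few nuclear genes of the same complexes were called, though most were slightly higher. Of 37 nuclear genes of complex I, 28 were higher and 0 were called in limma (median 0.047), and 2 had an unadjusted p under 0.05. Of 24 of complexes II to IV, 20 were higher (median 0.10) and only Cox5a rose, by 0.28, and of 15 of ATP synthase, 10 were higher (median 0.062) and only Atp5b rose, by 0.21. The difference between nuclear and mitochondrial genes was not tested. The 76 mitochondrial ribosomal proteins had 1 rise, Mrps33 (0.45), and 1 fall, Mrpl32 (-0.56). Of 22 genes of the integrated and mitochondrial stress response 1 rose and 1 fell, beside 12.4% called over all genes. Chac1 rose by 0.60 and Slc7a11 had -0.34. Without OLZ mouse 13, 2 of the 13 mitochondrial mRNAs rose, without OLZ+MINO mouse 48, 4, and without both, 0, at a median of 0.25 (4 were higher at an unadjusted p under 0.05). When each library was rescaled to a common total without the mitochondrial genes, 11 rose.

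**Figure D4:**
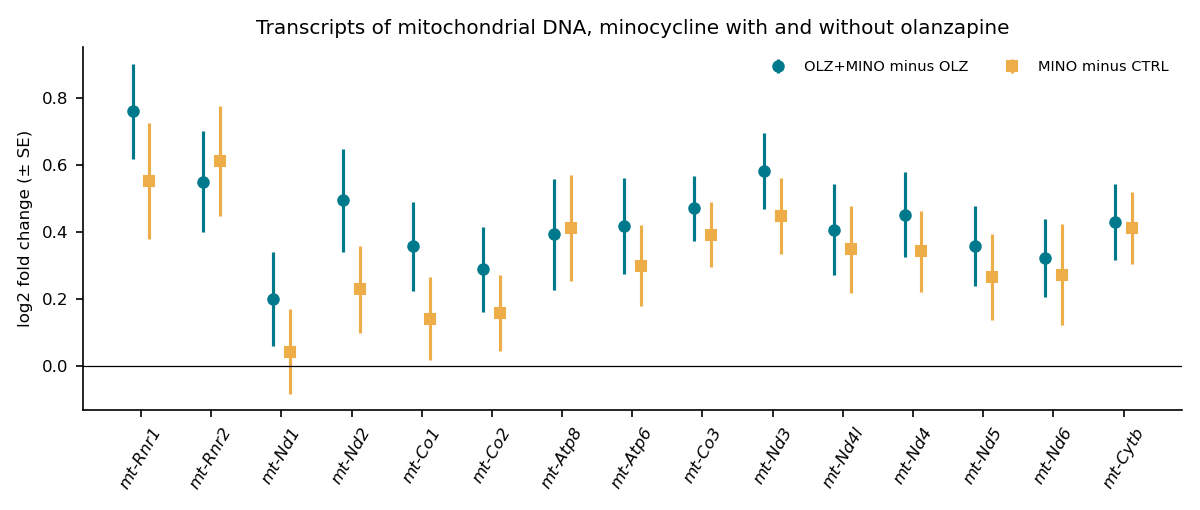
Log2 fold change with its standard error of the 15 transcripts of mitochondrial DNA, in OLZ+MINO minus OLZ (circles) and in MINO minus CTRL (squares), in the order of the genome. Both estimates are above 0 for each transcript, at 0.76 and 0.55 for mt-Rnr1.

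Myelin genes rose in the co-treated mice. All 20 measured genes of oligodendrocytes and myelin were higher, 11 passed the test, and the median log2 fold change was 0.51. Their summed level was 25795 to 34021 in OLZ and 35125 to 52690 in OLZ+MINO. CTRL mice ran from 24534 to 55727, a range that covers both groups. Myrf, the transcription factor that turns on myelination, was at 178, 208, 258 and 236 in OLZ and 300, 425, 329 and 452 in OLZ+MINO (log2 fold change 0.77, SE 0.19, limma adjusted p = 0.10). Opalin had 0.77, Fa2h, which makes the hydroxylated lipids of myelin, 0.73, Mobp 0.61 and Mbp, the major myelin protein of the cytosol, 0.55. Olig2, which marks the whole lineage, had 0.08 and did not pass the test. Mice 40 and 48 were the highest, as for Mbp with 15131 and 16103 beside 9887 and 10429 in mice 37 and 47, and 7181 to 9917 in OLZ. The 11 rises were 0 when OLZ mouse 13 was left out, 2 for OLZ mouse 14, 1 for OLZ+MINO mouse 40, 1 for OLZ+MINO mouse 48 and 0 for mice 13 and 48 together (2 at an unadjusted p under 0.05).

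Among the lists, voltage-gated channels held the most genes that rose by number. By share they did not, since 11 of 13 mRNAs of mitochondrial DNA rose. Of 33 potassium, sodium and calcium channel genes 18 rose (5.99% over all genes) and 0 fell, the median log2 fold change being 0.38. Hcn2, a pacemaker channel, was at 469, 419, 427 and 486 in OLZ and 570, 879, 631 and 965 in OLZ+MINO (log2 fold change 0.72, SE 0.14, limma adjusted p = 0.044). The axonal channels Kcna1 and Kcna2 had 0.78 and 0.71, the sodium channels Scn8a and Scn1a 0.53 each, and the subunit Scn4b 1.51, with overlap of the groups. Scn7a, described above, is a sodium channel gene by sequence but was listed with tanycytes. Of 15 general neuron markers 8 rose, such as the neurofilaments Nefm (0.70), Nefh (0.61) and Nefl (0.48) and the synaptic protein Snap25 (0.49). Without OLZ mouse 13, 5 of the 33 channels and 0 of the 15 neuron markers rose. Without OLZ+MINO mouse 48 it was 10 and 3, and without both mice 0 and 0 (12 and 3 were higher at an unadjusted p under 0.05).

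Transmitter receptors went both ways. Of 38 GABA and glutamate receptor genes 10 rose and 6 fell, beside 5.99% and 6.36% of all genes. Among the falls were Gabre (-1.70) and Gabrq (-0.92), subunits that are enriched in the hypothalamus. Gabre was at 307, 243, 198 and 221 in OLZ and 115, 73, 155 and 21 in OLZ+MINO. The rises included Gabrb2 (0.48), a subunit of the common GABA receptor of the forebrain, and Grm4 (1.16). Without OLZ mouse 13, 0 of the 38 rose and 0 fell in limma (6 were higher and 7 lower at an unadjusted p under 0.05), without OLZ+MINO mouse 48, 3 rose and 2 fell, and without both, 0 and 0 (4 and 3). Of 22 receptors that olanzapine binds, 5 rose (5.99% over all genes) and 0 fell. Drd2, the dopamine receptor through which antipsychotics act, was at 18, 51, 38 and 55 in OLZ and 56, 120, 67 and 85 in OLZ+MINO (log2 fold change 1.06, SE 0.33, limma adjusted p = 0.16). The groups differ by 1 count at their edge. Htr2c, the serotonin receptor tied to appetite, was at 411, 504, 646 and 657 in OLZ and 723, 986, 765 and 1134 in OLZ+MINO (log2 fold change 0.70, limma adjusted p = 0.12). Chrm2 had 0.71, Chrm3 0.80 and Hrh2 0.90. Htr2a (-0.19), bound tightly by olanzapine, did not pass the test. The 5 rises were 2 when OLZ mouse 13 was left out, 3 for OLZ+MINO mouse 48 and 0 for both (4 at an unadjusted p under 0.05).

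Markers of neighbouring tissue moved with these rises. All 15 thalamic genes were higher, 3 rose, and the median log2 fold change was 0.78. Of 8 genes of the habenula, which caps the thalamus, 4 rose (median 1.16). Calb2 is in both of these lists. The defining markers were highest in mouse 48. Tcf7l2 was at 1881 there and at 127 to 192 in the other co-treated mice and 110 to 150 in OLZ. Prkcd was at 1460 there beside 47 to 99, and Shox2, which had the largest rise by the limits given for Pomc (log2 fold change 3.6), at 498 beside 14 to 20. Without mouse 48 the medians were 0.21 for the thalamus and 0.32 for the habenula. The part of this tissue in the rise of channels, receptors and myelin was not tested.

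Among the 20 largest rises by the same limits were Adcy1 (0.99), an adenylyl cyclase, Syt7 (0.96) and Syt2 (0.88), calcium sensors of vesicle release, Cbln2 (1.01), a synapse organizer, Rgs8 (0.88) and Grip2 (0.87). Adcy1 and Syt7 were highest in mouse 48, at 2599 and 2640 beside at most 1033 and 932 in the other co-treated mice. Fbl, fibrillarin of the nucleolus, was at 35, 35, 52 and 22 in OLZ and 67, 96, 90 and 56 in OLZ+MINO. Among the 20 largest falls were Fzd5, a Wnt receptor, at -1.87, Frzb, a secreted Wnt inhibitor, at -1.76, Cited1 at -1.78, Asb4 at -1.87 and Sytl4 at -1.67. All 20 rises and all 20 falls kept their direction when OLZ mouse 13, OLZ+MINO mouse 40, OLZ+MINO mouse 48 or both mouse 13 and mouse 48 were left out. This was fixed in advance, since these genes were picked for groups that do not overlap. Of the 20 rises 10, 15, 15 and 1 remained called in these fits, and of the 20 falls 12, 17, 18 and 4.

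The worm homologues of Nr5a2 and Nfyb were followed up by the study, and both genes fell here. The study had drawn them from genes that olanzapine changed and minocycline corrected in these same mice. Their fall is therefore no independent finding. Nr5a2, a nuclear receptor also known as LRH-1, was at 206, 82, 66 and 64 in OLZ and 24, 25, 28 and 13 in OLZ+MINO, a log2 fold change of -2.04 (SE 0.41, limma adjusted p = 0.046). Nfyb, a subunit of the factor NF-Y, was at 214, 223, 260 and 203 in OLZ and 157, 152, 156 and 164 in OLZ+MINO, with a log2 fold change of -0.51 (SE 0.10, limma adjusted p = 0.055). The remaining subunits of NF-Y did not pass the test.

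Promoters were read for the letters these factors are known to bind, in the 250 bases before the start of transcription (RefSeq, GRCm38.p6, matched by symbol for 10938 genes). CAAGGTCA, the Nr5a2 motif, or its reverse complement TGACCTTG stood in 104 of 10938 windows (0.951%), in 11 of 637 of genes that rose (1.73%) and in 0 of 763 of genes that fell. CCAAT or ATTGG, the NF-Y motif, stood in 36.2% of all windows, 33.4% of those of genes that rose and 36.7% of those of genes that fell.  Of the 40 genes with the largest changes, 30 had a window, 2 of which hold the Nr5a2 motif, Adcy1 and Syt2, and 8 the NF-Y motif, among them Npy and Six6. These 4 are shown with the motif in capitals because they place the letters beside a gene whose values are given above. All are on the plus strand, from the lowest to the highest coordinate.
Adcy1, chr11:7063183-7063432: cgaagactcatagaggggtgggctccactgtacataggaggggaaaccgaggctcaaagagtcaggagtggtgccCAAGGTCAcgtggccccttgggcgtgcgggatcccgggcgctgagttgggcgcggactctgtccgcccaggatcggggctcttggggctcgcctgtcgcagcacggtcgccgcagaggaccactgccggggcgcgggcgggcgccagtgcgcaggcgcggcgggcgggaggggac
Syt2, chr1:134646362-134646611: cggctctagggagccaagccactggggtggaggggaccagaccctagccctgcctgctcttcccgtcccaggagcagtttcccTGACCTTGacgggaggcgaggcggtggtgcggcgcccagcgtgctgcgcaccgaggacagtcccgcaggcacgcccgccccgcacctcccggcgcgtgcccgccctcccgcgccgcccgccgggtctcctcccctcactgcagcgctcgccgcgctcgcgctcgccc
Six6, chr12:72939632-72939881: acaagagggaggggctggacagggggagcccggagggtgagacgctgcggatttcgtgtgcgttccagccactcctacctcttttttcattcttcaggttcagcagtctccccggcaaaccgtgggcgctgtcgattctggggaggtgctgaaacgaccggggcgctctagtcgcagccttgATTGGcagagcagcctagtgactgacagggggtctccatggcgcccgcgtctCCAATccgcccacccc
Npy, chr6:49822460-49822709: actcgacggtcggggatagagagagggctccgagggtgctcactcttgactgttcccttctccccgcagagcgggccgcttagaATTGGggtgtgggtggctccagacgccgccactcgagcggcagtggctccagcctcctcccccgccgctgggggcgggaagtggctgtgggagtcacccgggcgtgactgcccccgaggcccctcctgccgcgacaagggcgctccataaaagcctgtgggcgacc
In Adcy1 and Syt2, which rose, the capitals are the Nr5a2 letters, and in Six6 and Npy, which fell, they are the NF-Y letters. A match of letters is a description and no sign that the factor was bound.

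Minocycline without olanzapine was compared in a second table, scaled on its own, in which MINO mice stand against the CTRL mice and no library of OLZ or OLZ+MINO takes part (CTRL libraries enter the fit of OLZ+MINO against OLZ only through its estimate of the spread). In limma, 0 of 16005 genes passed an adjusted p of 0.3 (1026, or 6.41%, had an unadjusted p under 0.05, against 2379 or 14.9% for OLZ+MINO against OLZ). The genes called above mostly lay on the opposite side there. Of 952 genes that rose with minocycline in olanzapine-fed mice, 734 (77.1%) were lower in MINO than in CTRL, and of 1008 that fell, 756 (75.0%) were higher, while of all genes 50.2% were higher. The median log2 fold change in MINO was -0.12 for the former and 0.092 for the latter. All of the 20 largest falls were higher in MINO than in CTRL (median 0.84), and 17 of the 20 largest rises were lower.

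With each MINO or CTRL library left out in turn, the shares on the opposite side were 70.2 to 79.1% of the genes that rose and 64.5 to 79.7% of those that fell. Pomc was at 316, 976, 1106 and 163 in MINO mice 26, 31, 35 and 36, Scn7a at 280, 703, 728 and 275, and Col23a1 at 208, 469, 526 and 108. Mice 31 and 35, which had no olanzapine, thus reached values near those of OLZ mice, and mice 26 and 36 did not. Genes of a nucleus or a cell type vary together from mouse to mouse, so that these shares do not count independent genes. The difference between the effects with and without olanzapine was not tested here.

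Transcripts of mitochondrial DNA did not show this opposition. The 2 ribosomal RNAs took 7.06 ± 0.714% (SD, n = 4) of scaled counts in CTRL and 10.5 ± 1.14% (SD, n = 4) in MINO (two-sided exact permutation test, p = 0.0286), and all 13 mRNAs were higher in MINO, with a median log2 fold change of 0.30. Most immediate early genes, which neurons switch on when active, were also higher in both. Of 17 measured, 13 were higher and 4 lower in OLZ+MINO against OLZ, and 15 of 17 were higher in MINO than in CTRL. In OLZ+MINO against OLZ, Npas4 (1.12) and Egr1 (0.96) rose, 2 of 17 genes, which is near the 12.4% called over all genes. The summed levels of the 17 overlapped, at 1934 to 2991 in OLZ and 2617 to 3382 in OLZ+MINO. Leaving out OLZ mouse 13, OLZ mouse 17, OLZ+MINO mouse 40 or OLZ+MINO mouse 48 left 0 of them called in limma, with 2, 0, 2 and 1 higher at an unadjusted p under 0.05. Myelin, ion channel and ribosomal protein genes went the other way, with medians in MINO of -0.24, -0.099 and 0.074 for the 20, 33 and 74 genes. Microglial genes had a median of -0.0059 there, with 8 of 20 higher.

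**Figure D5:**
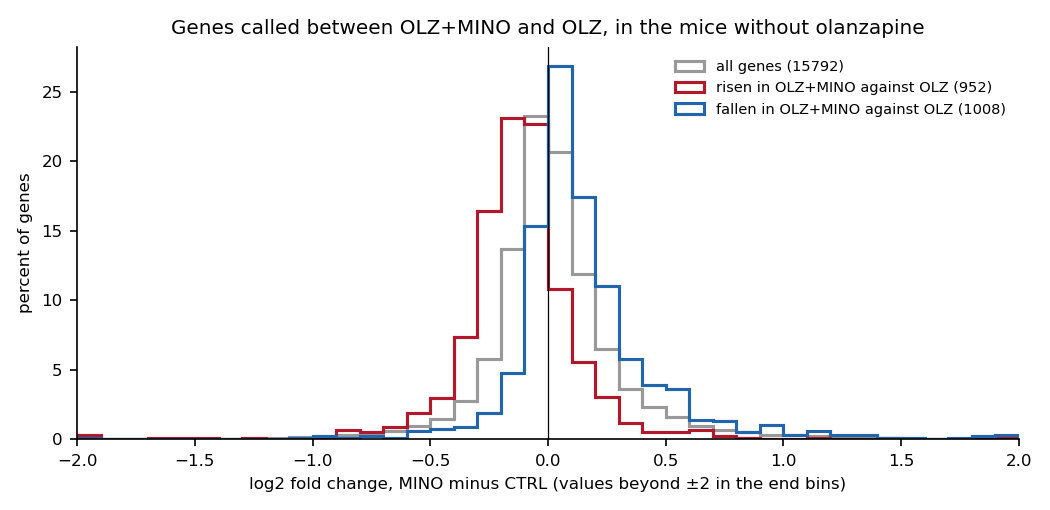
Distribution of the log2 fold change MINO minus CTRL for all genes (grey, 15792), for the 952 genes that rose (red) and for the 1008 that fell (blue) between OLZ and OLZ+MINO, as percent of the genes in each set per bin of 0.1. The red line is shifted to the left of 0 and the blue line to the right, with 77.1% and 75.0% of genes on those sides.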

How the data were processed

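Hypothalamic RNA of single mice was sequenced as TruSeq libraries. According to the study's methods and the submitters' processing notes, the authors mapped reads to the mouse transcriptome with Bowtie2 and counted them per gene with RSEM, and mm9 is the build named. The sources used here give neither versions nor the scaling method nor the use of strand. The deposited signal values are read counts per gene that the authors scaled for each library and rounded to whole numbers, so the read depth is unknown and no count model was fitted. The deposited tables also hold group means and the authors' own fold changes and local false discovery rates, which were not used, and 23 symbols turned into dates, which were left as they are.

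Values were analysed as log2(value + 1) in limma 3.58.1 (R 4.3.3) with an intensity trend. The CTRL, OLZ and OLZ+MINO libraries, 12 in all, shared 1 fit, and p-values were adjusted over all 15983 genes after Benjamini and Hochberg. MINO and CTRL were fitted apart, in their own table. Named are the 20 largest changes in each direction among called genes without overlap of the groups, with a mean of at least 50 and an annotated symbol, the 10 smallest p-values in each direction, and members of gene lists. A few genes that the rule names are not reported here, though counts include them. The comparison, members and lists were chosen with earlier results of these data known. The script was tested on simulated data. Coordinates are from GENCODE M21 by Ensembl ID. Alternatives were other samples, scalings, pseudocounts, filters, weights and thresholds, and each library left out.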

Additional observations from a re-analysis of the deposited data

Results flagged for a closer look

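Of 294 groups of 4 mice looked at (147 genes in OLZ and in OLZ+MINO), 27 held a mouse far from the other 3 by Dixon's ratio. Chance alone puts about 1 in 20 groups there, and genes of a cell type are not independent of each other. OLZ mouse 13 accounted for 11 of them. It was the highest OLZ mouse for Scn7a (1077), Rax (87), Tshr (96), Dio2 (304), Tbx3 (446), Nr5a2 (206), Esr1 (637) and Tcf7l2 (150), and the lowest for Epha10 (176), Ntsr1 (51) and mt-Atp6 (15162). OLZ+MINO mouse 48 accounted for 5, as the highest co-treated mouse for the thalamic genes Tcf7l2 (1881) and Prkcd (1460), for Shox2 (498) and for the synaptic genes Adcy1 (2599) and Syt7 (2640). The remaining 11 were spread over 5 mice. In OLZ+MINO they were mouse 37 for Agrp (11), Ikbkg (501) and Rpl14 (1284), mouse 40 for C1qb (98, lowest) and Npy (47), and mouse 47 for Frzb (46), Gfap (1601) and Rps26 (431, lowest). In OLZ they were mouse 14 for Ebf2 (11, lowest) and mouse 19 for Gm9843 (26) and Npas4 (29).

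For 5 of the genes named in the text the groups did not overlap either with or without olanzapine, and the difference had opposite signs. Over all genes, 7.7% had no overlap between OLZ and OLZ+MINO, and many named genes were picked for this. The share of all genes without overlap in both comparisons is not given here, so the 5 cannot be set against it. Tshr had a log2 fold change of -3.02 in OLZ+MINO minus OLZ and 1.76 in MINO minus CTRL, Esr1 -1.47 and 0.78, and Erap1 -0.93 and 0.37. Kcna6 had 0.46 and -0.17, and Cygb 0.43 and -0.34. The difference between the effects was not tested.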

How the results depend on the processing

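The count of 1974 genes stayed between 1792 and 2189 with only OLZ and OLZ+MINO in the fit, other scalings, pseudocounts of 0.1 and 10, a minimum mean of 50 and quality weights. Without the intensity trend 1023 genes were called (435 higher, 588 lower), and at an adjusted p under 0.05, 54 (17 higher, 37 lower). With a library left out the count was 187 to 2834, with 75 to 1415 genes that rose and 112 to 1419 that fell. Without both OLZ mouse 13 and OLZ+MINO mouse 48, an alternative chosen after seeing the data, 11 genes were called, of which 3 rose and 8 fell. The 1231 genes without overlap became 1587 to 2281 when a library was left out, since fewer mice overlap less often, and the 0 genes called between CTRL and MINO became 0 to 3. Of the 136 called genes named in the text, the call was lost for 77 without OLZ mouse 13, 47 without OLZ+MINO mouse 40, 45 without OLZ+MINO mouse 48, 36 without OLZ mouse 14, 35 without the intensity trend and 125 without both mouse 13 and mouse 48. None changed sign, though mt-Rnr2 was set to 0 by quantile normalization. Leaving out mice cannot reverse a gene whose groups do not overlap. Some genes that did not pass the test did change sign. With single libraries left out, Pmch had log2 fold changes of -0.72 (OLZ mouse 13) to 0.47 (OLZ+MINO mouse 48), Hcrt -0.40 (OLZ+MINO mouse 37) to 1.04 (OLZ+MINO mouse 48), Aqp4 -0.028 (OLZ mouse 19) to 0.27 (OLZ+MINO mouse 37), Olig2 -0.013 (OLZ+MINO mouse 48) to 0.16 (OLZ+MINO mouse 37) and Prkcd -0.059 (OLZ+MINO mouse 48) to 1.58 (OLZ+MINO mouse 37). Without both mice, Pmch had 0.036, Aqp4 -0.0056 and Olig2 -0.066, and with quality weights Pmch had 0.021. The causes were not tested. No paired analysis was possible because the mouse numbers of the groups are not shared.

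Single pieces of tissue from 4 mice a group limit these results, markers of neighbouring regions differ between mice, and the scaled counts give no read depth.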
